A study of Rattus norvegicus with 9 samples.

Results

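The protein tyrosine phosphatases described here are the 51 probe sets, of 15866 that are not controls, whose gene symbol in the platform's probe table begins with Ptpn or Ptp4a and a number or with Ptpr and a letter. They stand for 36 of 10411 named genes, 23 with 1 probe set and 13 with several. The rule also takes in Ptprcap, a small lymphocyte membrane protein that associates with the phosphatase CD45 and is not a phosphatase itself, and Ptprdl, a Ptprd-like entry. Ureteric buds, the epithelial outgrowths that form the collecting duct system, were isolated from Sprague-Dawley rat embryos at embryonic day 13 and grown for 4 days in 50% Matrigel and 50% collagen. All buds were given FGF1 (250 ng/ml) together with GDNF (125 ng/ml), which signals through Ret. For the BSN group (n = 3) the addition was conditioned medium from a line of metanephric mesenchymal cells. For the HRG group (n = 3) it was recombinant human heregulin alpha (500 ng/ml), which activates ErbB receptors. For the PTN group (n = 3) it was pleiotrophin, a secreted heparin-binding protein purified from that conditioned medium, at roughly 3 µg/ml. RNA of 3 pooled buds made 1 sample, and no group received FGF1 and GDNF alone, so a rise in one medium cannot be told apart from a fall in the other. The series title counts PTN as branching and the PTN sample descriptions call it non-branching, so groups are named by medium.

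Classical protein tyrosine phosphatases remove phosphate from tyrosine and so set the level and duration of signals that receptor tyrosine kinases such as Ret, ErbB2 and the FGF receptors start. Receptor types span the membrane and carry adhesion-like or short ectodomains, cytosolic types are placed by FERM, PDZ, SH2 or other domains, and the Ptp4a proteins (PRL phosphatases) are small and attached to membranes by a lipid tail. In mouse, loss of Ptprf together with Ptprs disturbs the joining of the ureter to the bladder, and Ptpn11, encoding Shp2, is needed in the ureteric bud for branching. Ptprz1 is a receptor for pleiotrophin, and ligand binding reduces its activity.

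The sequences below are the 250 bases before the RefSeq start (build GRCr8) of 3 members. They are shown because a probe set of each passed in HRG in the same direction against BSN and against PTN. For Ptpn18 and Ptprs these were 1373065_at and 1387901_at, and the other tested probe set of each passed in no comparison. The Ptpn18 call against PTN was lost in 9 of 18 alternatives. Of the 36 genes 29 had a promoter entry, among them Ptprr, Ptpn18 and Ptprs. Ptpn13 and Ptprb also passed in this way and had no entry. Capitals mark matches, on either strand, to any of 6 motifs that do not share letters in these windows: the TATA box TATAAA, the GC box GGGCGG, the cyclic AMP element TGACGTCA, the E-box CACGTG, the AP-1 site TGANTCA and the ETS core CCGGAA. On these probe sets Ptprr (chr7:53685989-53686238, plus strand) and Ptpn18 (chr9:44168047-44168296, plus strand) were higher in HRG, and Ptprs (chr9:1394092-1394341, minus strand) was lower. Each sequence runs 5′ to 3′ on the gene's strand.
Ptprr: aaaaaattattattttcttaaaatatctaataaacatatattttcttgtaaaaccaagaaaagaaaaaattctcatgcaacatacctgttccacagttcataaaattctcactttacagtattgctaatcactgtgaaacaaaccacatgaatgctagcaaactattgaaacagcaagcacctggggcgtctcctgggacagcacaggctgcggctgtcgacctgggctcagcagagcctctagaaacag
Ptpn18: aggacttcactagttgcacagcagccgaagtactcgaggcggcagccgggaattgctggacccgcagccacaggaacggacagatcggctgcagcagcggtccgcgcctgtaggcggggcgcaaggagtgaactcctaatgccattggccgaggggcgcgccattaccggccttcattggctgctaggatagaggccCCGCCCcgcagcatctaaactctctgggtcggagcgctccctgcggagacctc
Ptprs: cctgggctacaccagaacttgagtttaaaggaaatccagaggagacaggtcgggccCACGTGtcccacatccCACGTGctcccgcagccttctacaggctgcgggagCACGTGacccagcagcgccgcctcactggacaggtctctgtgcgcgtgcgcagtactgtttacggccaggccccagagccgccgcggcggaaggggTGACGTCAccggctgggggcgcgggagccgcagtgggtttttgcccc
The Ptprr window held no match to these letters. The Ptpn18 window held 1 GC box, a motif found in 32.4% of the 27457 promoter windows of this length. The Ptprs window held 3 E-boxes and 1 cyclic AMP element, whose letters occur in 5.79% and 1.7% of windows, and no other of the 29 member windows held either. GC boxes lay in 19 of the 29 member windows. A match is a description of letters, not of a bound factor.

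Each array gives a GCOS signal, a brightness per probe set on a linear scale, and levels of different probe sets are not compared. Probe sets were tested if at least 3 of the 9 arrays read them above that array's 40th percentile, which lay at 580.1 to 788 signal units. Pearson's r across tested probe sets was 0.946 to 0.979 within groups and 0.882 to 0.937 between groups, and PTN replicate 1 was least like its group (mean r of 0.946). For actin, the signal near the 3' end over that near the 5' end, a measure of RNA truncation, averaged 33.2 ± 4.91 (BSN), 25.2 ± 5.86 (HRG) and 16.6 ± 1.4 (PTN, SD, n = 3), and the exact two-sided permutation p for PTN was 0.1 against either group, the smallest that 3 against 3 can give. The same ratio for GAPDH did not follow it, at 4.57 ± 1.11 (BSN), 2.92 ± 0.802 (HRG) and 5.14 ± 1.98 (PTN, SD, n = 3). Its exact permutation p was 0.9 between PTN and BSN, 0.3 between PTN and HRG and 0.1 between HRG and BSN. The part of either ratio in the results was not tested. Of the 11 ureteric epithelial markers on the array, 10 were above the 40th percentile in every group, and Pax8 was below it. Their levels were not alike between media: 1 was higher and 3 lower in HRG against BSN (Krt19 3.67-fold higher, and Ret 14.5-fold, Gfra1 2.8-fold and Lhx1 2.56-fold lower), 4 were higher and 3 lower in HRG against PTN, and 1 was higher and 3 lower in PTN against BSN. Over all tested probe sets 6.92% were higher and 8.86% lower in HRG against BSN. The shares were 14.1% and 11.7% in HRG against PTN, and 9.15% and 13.4% in PTN against BSN. The part of these markers in the phosphatase values was not tested.

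Of the 51 probe sets 31 were tested, for 24 genes. Of these 15, for 13 genes and with Ptprb among them, passed in at least 1 comparison, as did 38.7% of all 10106 tested probe sets. The family did not move as a block: members rose and fell in each comparison, and sizes were mostly under 2-fold. In HRG against BSN 7 probe sets passed (22.6% of 31), 5 higher (Ptprr, Ptprb, Ptpn13, Ptpn18 and Ptprd) and 2 lower (Ptprs and Ptp4a2). Ptpn18, Ptprd, Ptprs and Ptp4a2 each passed there on 1 of 2 tested probe sets. Without Ptprb, which entered the tests through the HRG arrays where it was high, 6 of 30 passed, 4 higher and 2 lower. Over all tested probe sets 15.8% passed in that comparison, 6.92% higher and 8.86% lower. In HRG against PTN 11 passed (35.5%), 6 higher and 5 lower, beside 25.8% of all probe sets (14.1% higher and 11.7% lower). Without Ptprb 10 of 30 passed there, 5 higher and 5 lower. In PTN against BSN 8 passed (25.8%), 4 higher and 4 lower, beside 22.5% of all (9.15% higher and 13.4% lower). The median log2 change of the 31 was -0.01 in HRG against BSN, 0.10 in HRG against PTN and 0.04 in PTN against BSN, beside -0.04, 0.08 and -0.11 over all tested probe sets. The median size of a change, without its sign, was 0.27, 0.30 and 0.34 for the members and 0.23, 0.29 and 0.29 for all. The arrays of the compared groups did not overlap for 13, 14 and 13 of the 31 members, against 37%, 40.2% and 38.5% of all probe sets. The 3 comparisons share arrays pairwise and are not independent.

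The PTN against BSN count rested on single arrays: it was 15 (7 higher and 8 lower) without PTN replicate 1 and 5 (3 higher and 2 lower) without BSN replicate 1. With each array centred on its median it was 10, split 8 higher and 2 lower, and after quantile normalization it was 8, split 5 higher and 3 lower. These scalings moved the median change of all probe sets in this comparison by 0.13 and 0.11 on the log2 scale. The HRG against PTN count was 7 without HRG replicate 2 and 9 after median centring, split 4 higher and 5 lower.

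**Figure D1:**
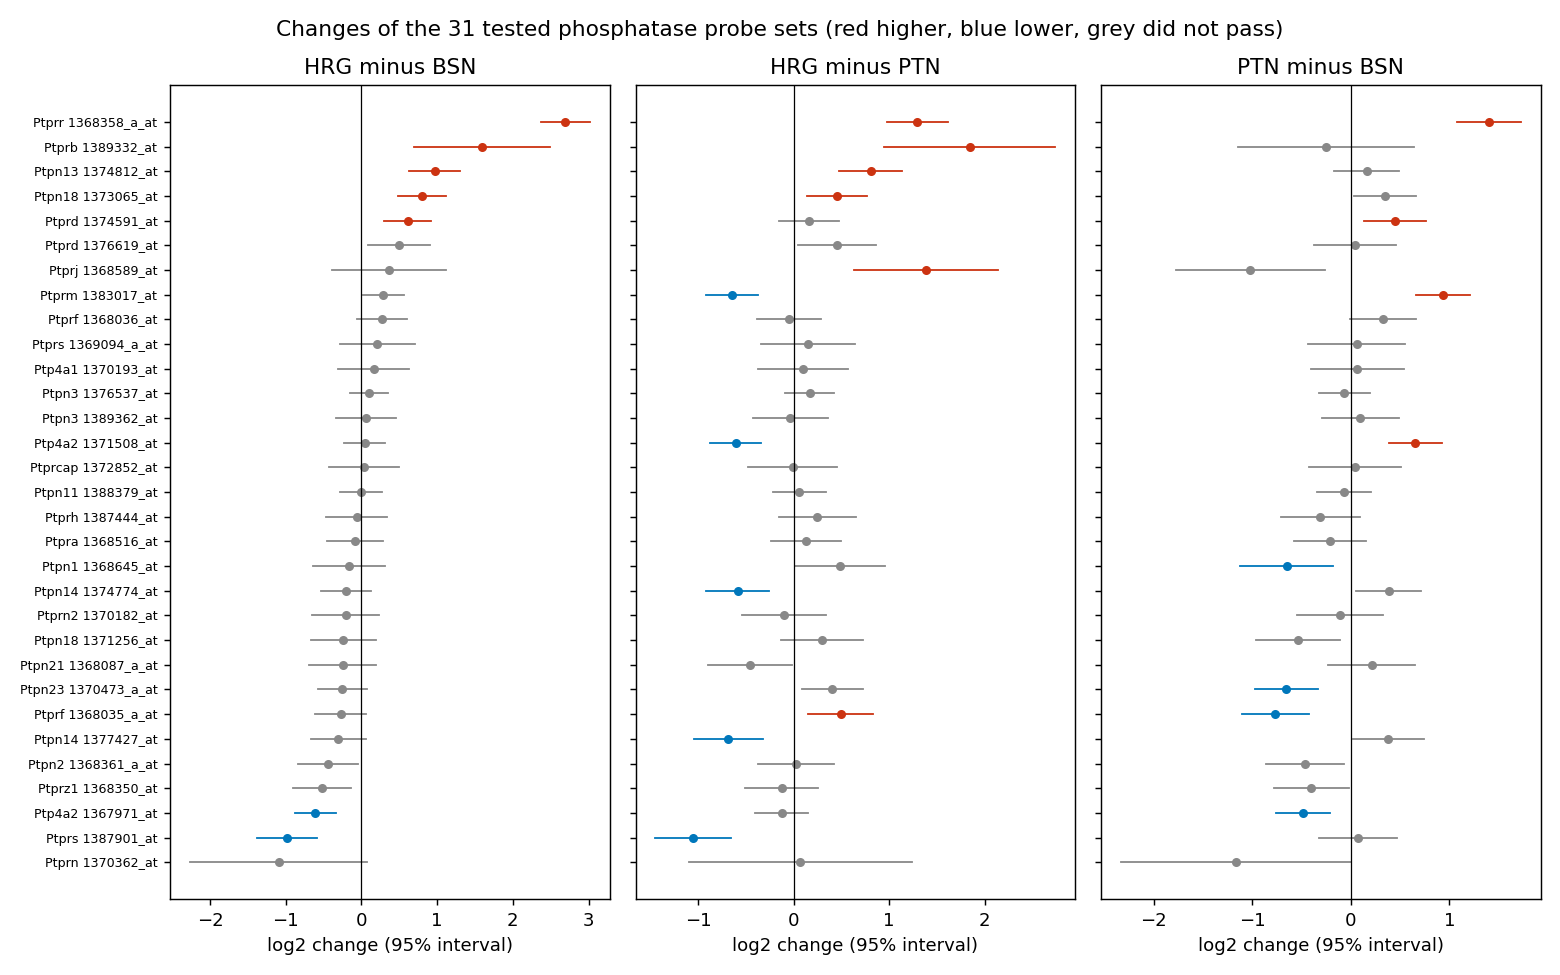
Log2 change with its 95% interval (x axis) for each of the 31 tested phosphatase probe sets (y axis, ordered by HRG minus BSN), in 3 panels for the 3 comparisons of media, with red and blue for probe sets that passed as higher or lower and grey for the rest. Ptprr lies farthest to the right in HRG minus BSN (2.69), and most intervals in that panel span 0.

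Ptprr, a receptor-type phosphatase that binds and dephosphorylates MAP kinases such as ERK, had the largest difference among the tested members in HRG against BSN and in PTN against BSN. Its signals were 2733.8, 2558.8 and 2810.4 in BSN, 16419.9, 19885.3 and 16555.2 in HRG, and 5999.3, 8514.2 and 7131.7 in PTN. No array of one medium overlapped another, with PTN between BSN and HRG. Ptprr rose 6.47-fold in HRG against BSN (log2 change 2.69 ± 0.149 SE, adjusted p = 1.35e-07), 2.45-fold in HRG against PTN (1.30 ± 0.149, adjusted p = 4.65e-05) and 2.64-fold in PTN against BSN (1.40 ± 0.149, adjusted p = 7.8e-05). All 3 calls held under each of the 18 alternatives run for them. By log2 change it was number 17 from the top of 10106 probe sets in HRG against BSN, number 37 in PTN against BSN and number 203 in HRG against PTN. Each sample is RNA of whole buds, so more cells with Ptprr and more Ptprr RNA per cell cannot be told apart, here and in what follows. The relatives Ptpn5 and Ptpn7, which share the MAP kinase binding motif, were below the 40th percentile on all 9 arrays: Ptpn5 lay between 57.2 and 134.8, and the Ptpn7 probe sets between 82.5 and 157.7 and between 107.5 and 374.3.

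**Figure D2:**
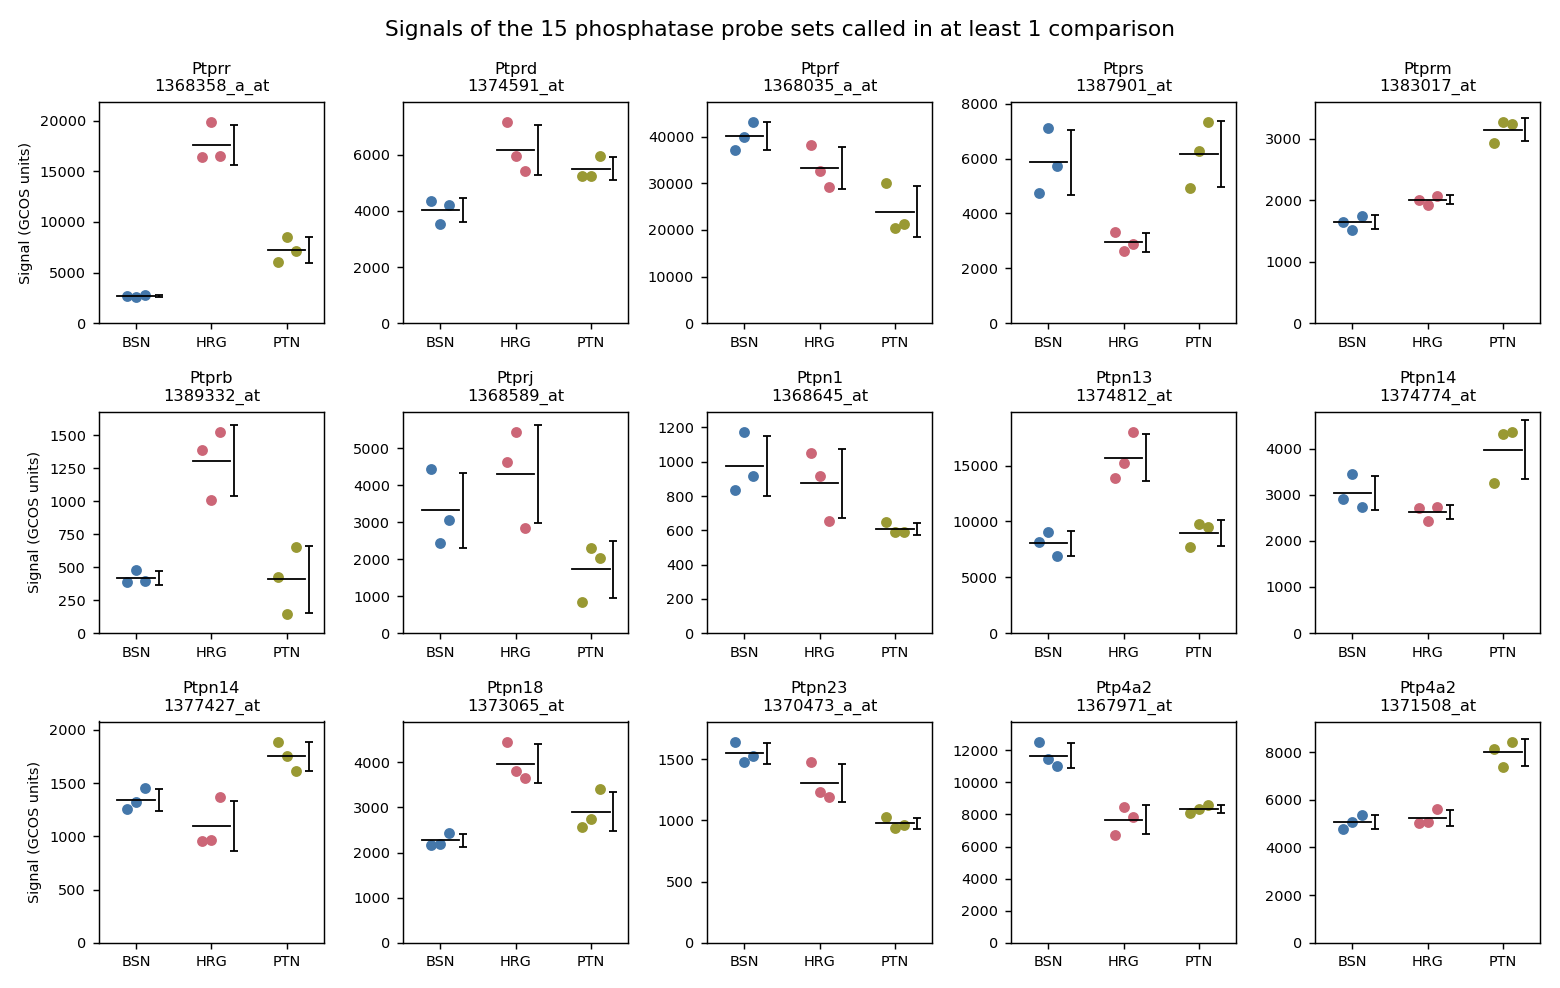
Signal in GCOS units (y axis, from 0, scaled per panel) on each of the 9 arrays by medium (x axis) for the 15 phosphatase probe sets that passed in at least 1 comparison. Points are arrays, horizontal lines are group means and bars are SD (n = 3). In the Ptprr panel the 3 HRG arrays lie at 16419.9 or above and the 3 BSN arrays at 2810.4 or below.

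The LAR subgroup, whose ectodomains of immunoglobulin and fibronectin repeats bind heparan and chondroitin sulfate proteoglycans, had members going either way. Ptprs (1387901_at) was lower in HRG than in either other medium. Its signals were 4752.1, 7116.5 and 5727.2 in BSN, 3305.2, 2632.1 and 2886.2 in HRG, and 4918.5, 6258.5 and 7332.1 in PTN. The HRG arrays lay below all others, and BSN and PTN overlapped. Ptprs fell 1.97-fold in HRG against BSN (log2 change -0.98 ± 0.183 SE, adjusted p = 0.00266) and 2.07-fold against PTN (-1.05 ± 0.183, adjusted p = 0.0011), and PTN and BSN were at 6169.7 ± 1209 and 5865 ± 1188 (SD, n = 3, limma adjusted p = 0.804). Both calls held under all 18 alternatives. The other tested Ptprs probe set, 1369094_a_at, did not share the fall, at 1279.5 ± 446 (BSN), 1421 ± 173 (HRG) and 1274 ± 57.9 (PTN, SD, n = 3), and passed in no comparison (log2 change 0.21 in HRG against BSN and 0.15 against PTN).

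Ptprd, the LAR member known as a synaptic organiser and expressed in many epithelia, was lowest in BSN on its brighter probe set (1374591_at). Signals were 4344.7, 3527.9 and 4221.2 in BSN, 7171.7, 5955.7 and 5420.0 in HRG, and 5256.9, 5261.9 and 5968.8 in PTN. All BSN arrays lay below those of the other media, which overlapped each other. Ptprd rose 1.53-fold in HRG (adjusted p = 0.0119) and 1.37-fold in PTN (adjusted p = 0.0425) against BSN. The HRG call did not hold when BSN replicate 2 (0.061) or HRG replicate 1 (0.0516) was left out. The PTN call was lost in 8 of 18 alternatives, with adjusted p up to 0.142: without an intensity trend, with only the groups compared, and without BSN replicate 1, 2 or 3, HRG replicate 2, or PTN replicate 2 or 3. The second Ptprd probe set, 1376619_at, passed in no comparison, at 966 ± 127 (BSN), 1383 ± 307 (HRG) and 991 ± 90.5 (PTN, SD, n = 3), with log2 changes of 0.49 in HRG and 0.04 in PTN against BSN (limma adjusted p = 0.106 and 0.9).

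Ptprf, encoding LAR itself, was read by a pair of tested probe sets that moved apart. On 1368035_a_at signals were 37108.3, 39870.8 and 43120.3 in BSN, 38126.5, 32696.3 and 29102.4 in HRG, and 30138.7, 20368.3 and 21207.4 in PTN. The PTN arrays lay below all BSN arrays, while HRG overlapped both. It fell 1.7-fold in PTN against BSN (log2 change -0.76 ± 0.156 SE, adjusted p = 0.00461), a call that held under all 18 alternatives. It was 1.41-fold higher in HRG than in PTN (adjusted p = 0.0348), a call lost in 9 of 18 alternatives with adjusted p up to 0.141: after median centring, with no filter, without an intensity trend, with only the groups compared, and without BSN replicate 2, HRG replicate 1 or 2, or PTN replicate 2 or 3. On 1368036_at the group means were 19715 ± 2079 (BSN), 23827 ± 2006 (HRG) and 24952 ± 5225 (PTN, SD, n = 3), and no comparison passed (adjusted p = 0.15 for PTN against BSN).

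Ptprm, a receptor phosphatase that binds its own kind on neighbouring cells, was highest in PTN. Signals were 1643.6, 1522.0 and 1749.9 in BSN, 2009.3, 1926.5 and 2073.5 in HRG, and 2927.7, 3270.6 and 3229.9 in PTN, with no overlap between any of the media. Ptprm rose 1.91-fold in PTN against BSN (log2 change 0.93 ± 0.126 SE, adjusted p = 0.000377) and was 1.56-fold lower in HRG than in PTN (-0.64 ± 0.126, adjusted p = 0.00245). Both calls held under all 18 alternatives. HRG against BSN did not pass (log2 change 0.29 ± 0.126, adjusted p = 0.153).

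Ptprb and Ptprj have ectodomains of fibronectin repeats. Ptprb, known as the endothelial phosphatase VE-PTP, had signals of 386.5, 478.0 and 391.7 in BSN, 1387.4, 1009.0 and 1525.2 in HRG, and 423.1, 147.0 and 654.6 in PTN. Its HRG arrays lay above all others, and it entered the tests through those arrays, since 4 of 9 arrays were above the 40th percentile. Its calls as higher in HRG among the filtered probe sets are therefore a description. In the fit of all probe sets with no filter the log2 change was 1.59 ± 0.43 SE against BSN (adjusted p = 0.0423) and 1.84 ± 0.43 against PTN (adjusted p = 0.0149), with no fold given because the other media were below the 40th percentile. Among the filtered probe sets the call against BSN did not survive leaving out replicate 1 (0.0611) or 3 (0.0621) of BSN, or replicate 1 (0.0667) or 3 (0.0861) of HRG. Of the 7 endothelial markers on the array only Kdr and Esam were tested, and Pecam1, Flt1, Tie1, Vwf and Emcn were not above the 40th percentile in any group mean. The summed endothelial marker signal was 2848 to 3384 in BSN, 2700 to 3552 in HRG and 2676.5 to 3215 in PTN. These markers did not move as one with Ptprb. Esam, an endothelial adhesion molecule, was at 887 ± 65.3 (BSN), 1041 ± 164 (HRG) and 796 ± 125 (PTN, SD, n = 3) and passed in no comparison. The means of Pecam1, Flt1, Tie1 and Emcn, under the 40th percentile, were also highest in HRG, and that of Vwf was not. Kdr, the VEGF receptor, was at 742 ± 29.5 (BSN), 329 ± 27.6 (HRG) and 840.2 ± 229 (PTN, SD, n = 3). Its HRG arrays lay below all others. It entered the tests through 4 BSN and PTN arrays, and its BSN mean was also under the 40th percentile. Its calls as lower in HRG than in BSN and in PTN are therefore a description too.

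Ptprj, a receptor phosphatase that acts on several growth factor receptors and on cell contacts, had signals of 4440.9, 2446.1 and 3072.1 in BSN, 4640.1, 5452.0 and 2840.5 in HRG, and 838.9, 2295.0 and 2041.0 in PTN. The PTN arrays lay below all others, PTN replicate 1 lowest, and BSN and HRG overlapped. It was 2.62-fold higher in HRG than in PTN (adjusted p = 0.011), a call lost without HRG replicate 2 (0.0501). PTN against BSN missed the threshold (log2 change -1.02 ± 0.35 SE, adjusted p = 0.0531), and passed without PTN replicate 2 (0.0294) or HRG replicate 3 (0.0463) and with the 60th percentile filter (0.0458). Ptprh, the third tested member of this subgroup, passed in no comparison.

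Ptprz1, the pleiotrophin receptor, passed in no comparison. Signals of its brighter probe set (1368350_at) were 2143.1, 2230.4 and 2207.0 in BSN, 1578.2, 1607.6 and 1382.2 in HRG, and 1312.3, 2218.8 and 1566.4 in PTN. All BSN arrays lay above all HRG arrays, and PTN overlapped both, with PTN replicate 2 at the BSN level. The log2 change was -0.52 in HRG against BSN (95% interval -0.91 to -0.14, adjusted p = 0.0645), -0.13 in HRG against PTN (-0.51 to 0.26, adjusted p = 0.649) and -0.40 in PTN against BSN (-0.78 to -0.02, adjusted p = 0.123). HRG against BSN passed without PTN replicate 1 (0.0201) or PTN replicate 2 (0.0259), arrays that enter it only through the shared spread, and with only the groups compared (0.0124). PTN against BSN passed without PTN replicate 2 (0.0227). The second Ptprz1 probe set lay between 150.4 and 391.3, below the 40th percentile on every array.

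Its ligands fell in HRG and did not pass in PTN against BSN. Ptn, encoding pleiotrophin, had signals of 4719.2, 4094.1 and 2827.3 in BSN, 1434.4, 896.6 and 764.3 in HRG, and 3814.4, 4386.8 and 3939.6 in PTN, and Mdk, encoding midkine, had group means of 19009 ± 2345, 4271 ± 508 and 16838 ± 2170.1 (SD, n = 3). Both were lower in HRG than in either other medium, and neither passed in PTN against BSN (adjusted p = 0.809 and 0.411). Of the 33 ligands and partners of receptor phosphatases on the array 22 were tested: 1 was higher and 8 lower in HRG against BSN, 2 higher and 8 lower in HRG against PTN, and 4 higher and 2 lower in PTN against BSN. Their median log2 change was -0.23, -0.08 and -0.03 in that order, beside -0.04, 0.08 and -0.11 for all tested probe sets. Of all tested probe sets 6.92% were higher and 8.86% lower in HRG against BSN. The shares were 14.1% and 11.7% in HRG against PTN, and 9.15% and 13.4% in PTN against BSN. Among the partners, Ppfibp1, a liprin that belongs to the scaffold family of the LAR phosphatases, had group means of 18766 ± 1522 (BSN), 12415 ± 1412 (HRG) and 25697 ± 2269 (PTN), and passed in all 3 comparisons (limma adjusted p = 0.00654, 7.54e-05 and 0.0239). The liprins did not move together. Ppfibp2 was at 2374 ± 274 (BSN), 2112 ± 663 (HRG) and 1251 ± 206 (PTN, SD, n = 3). It was higher in HRG than in PTN (limma adjusted p = 0.0217) and lower in PTN than in BSN (limma adjusted p = 0.00743). Ppfia1 passed in no comparison.

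The other receptor types tested were Ptpra, an activator of Src kinases, and Ptprn and Ptprn2, catalytically inactive proteins of secretory granules, and they passed in no comparison. Ptpra was at 2000.3 ± 69.2 (BSN), 1886 ± 53.5 (HRG) and 1766 ± 473 (PTN). Ptprn was at 782.8, 849.9 and 1653.5 in BSN, 515.8, 817.8 and 252.1 in HRG, and 871.6, 601.7 and 171.6 in PTN, with overlap between all media. Ptprn2 lay between 657.6 and 1044.4. Ptprcap lay between 593.8 and 894.1, near the 40th percentile, and passed in no comparison.

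Of the cytosolic phosphatases 9 genes were tested with 12 probe sets, and 6 of these passed in at least 1 comparison, beside the 38.7% of all tested probe sets. Ptpn13, a large FERM and PDZ domain phosphatase of the apical cell cortex, was raised in HRG. Signals were 8178.7, 9061.0 and 6878.9 in BSN, 13894.3, 15235.0 and 18032.6 in HRG, and 7667.6, 9782.2 and 9480.5 in PTN. All HRG arrays lay above all others, and BSN and PTN overlapped. It rose 1.95-fold in HRG against BSN (log2 change 0.97 ± 0.153 SE, adjusted p = 0.00087) and 1.75-fold against PTN (0.81 ± 0.153, adjusted p = 0.002), and both calls held under all 18 alternatives.

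Ptpn18, a PEST-type phosphatase that acts on ErbB2, was also highest in HRG on 1373065_at. Signals were 2176.2, 2196.2 and 2441.3 in BSN, 4456.5, 3814.4 and 3642.8 in HRG, and 2574.1, 2740.5 and 3399.9 in PTN, with no overlap between any of the media. It rose 1.74-fold in HRG against BSN (adjusted p = 0.00226), a call that held under all 18 alternatives, and 1.37-fold against PTN (adjusted p = 0.0365). The PTN call was lost in 9 of 18 alternatives with adjusted p up to 0.137: after quantile normalization or median centring, with only the groups compared, and without BSN replicate 1, HRG replicate 1, 2 or 3, or PTN replicate 1 or 2. PTN against BSN did not pass (adjusted p = 0.108), and passed as higher in PTN after median centring (0.0377) or without PTN replicate 1 (0.0418). Its second probe set, 1371256_at, was at 1802 ± 450.3 (BSN), 1507 ± 229 (HRG) and 1223 ± 195 (PTN, SD, n = 3), and passed in no comparison.

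Ptpn14, a FERM domain phosphatase that restrains the coactivator YAP, was lower in HRG than in PTN on each of its probe sets. On 1374774_at signals were 2911.9, 3454.7 and 2738.3 in BSN, 2704.5, 2442.8 and 2729.8 in HRG, and 3247.9, 4324.2 and 4369.8 in PTN, and on 1377427_at they were 1252.1, 1322.5 and 1449.6, then 959.4, 963.4 and 1372.7, then 1889.0, 1755.3 and 1615.0. HRG and PTN did not overlap on either. The falls were 1.5-fold (adjusted p = 0.0132) and 1.61-fold (adjusted p = 0.00951). The first was lost without HRG replicate 2 (0.0551), PTN replicate 2 (0.0502) or PTN replicate 3 (0.0526), and the second held under all 18 alternatives. PTN against BSN did not pass on either (adjusted p = 0.0892 and 0.12). After median centring both passed as higher in PTN (0.0405 and 0.0436), the first also without PTN replicate 1 (0.0131) and the second after quantile normalization (0.0303).

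Ptpn23, an endosomal sorting phosphatase, had signals of 1644.4, 1476.2 and 1523.2 in BSN, 1481.3, 1236.4 and 1191.6 in HRG, and 1026.6, 936.2 and 964.7 in PTN. All PTN arrays were below all others. It fell 1.58-fold in PTN against BSN (log2 change -0.66 ± 0.148 SE, adjusted p = 0.00773), a call that held under the 17 alternatives that gave a value, and HRG against PTN missed the threshold (0.0608), passing without PTN replicate 1 or without an intensity trend (0.0469 each). Ptpn1, the insulin receptor phosphatase PTP1B, had signals of 837.5, 1174.9 and 915.6 in BSN, 1050.2, 919.4 and 655.5 in HRG, and 650.1, 590.5 and 588.5 in PTN, where its mean was below the 40th percentile. It was lower in PTN than in BSN (adjusted p = 0.0484), a call lost in 11 of 17 alternatives with adjusted p up to 0.209, among them the replicate number as a block (0.0508), quantile normalization, median centring, no filter, only the groups compared, and the fits without BSN replicate 1, 2 or 3, HRG replicate 2, or PTN replicate 2 or 3.

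The other 4 cytosolic genes tested passed in no comparison. Ptpn11, encoding Shp2, which relays signals from many receptor tyrosine kinases to Ras, had signals of 11058.9, 10698.2 and 10869.5 in BSN, 11211.4, 10753.7 and 10501.5 in HRG, and 8908.6, 11674.5 and 10745.8 in PTN. Its log2 change was -0.01 in HRG against BSN (95% interval -0.28 to 0.27), 0.06 in HRG against PTN (-0.21 to 0.33) and -0.07 in PTN against BSN (-0.34 to 0.21). Ptpn2, the nuclear and endoplasmic reticulum relative of PTP1B that acts on JAK and STAT proteins, was at 6629 ± 918 (BSN), 4876 ± 494 (HRG) and 4879 ± 1243 (PTN, SD, n = 3), and HRG lay below BSN with no overlap but did not pass (adjusted p = 0.133). Ptpn3, a FERM and PDZ domain phosphatase, was at 3385 ± 68.6, 3634 ± 164 and 3232 ± 116 on 1376537_at, and Ptpn21, another FERM domain member, at 1704 ± 454, 1406 ± 184 and 1942 ± 321.

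Among the PRL phosphatases, which are linked to proliferation and invasion, Ptp4a2 changed and Ptp4a1 did not pass. On 1367971_at Ptp4a2 had signals of 12537.8, 11470.7 and 10996.1 in BSN, 6720.5, 8475.6 and 7822.5 in HRG, and 8111.1, 8325.2 and 8567.8 in PTN. On 1371508_at it had 4775.2, 5081.6 and 5366.9 in BSN, 5008.0, 5059.1 and 5623.0 in HRG, and 8146.2, 7369.4 and 8435.2 in PTN. The first probe set was highest in BSN and the second highest in PTN, in each case with no overlap. In PTN against BSN the first fell 1.4-fold (log2 change -0.48 ± 0.127 SE, adjusted p = 0.0164) and the second rose 1.57-fold (0.65 ± 0.124, adjusted p = 0.00304), so no direction is given for the gene there. The first call was lost after median centring (0.0832) or without BSN replicate 1 (0.0669). In HRG against BSN the first fell 1.52-fold (adjusted p = 0.00546) and the second did not pass (log2 change 0.04, adjusted p = 0.87). In HRG against PTN the second fell 1.52-fold (adjusted p = 0.00311) and the first did not pass (log2 change -0.13, adjusted p = 0.51). No direction is given for the gene in these comparisons either. Ptp4a1 ranged from 10219.9 to 17827.0 with overlap between all media, and Ptp4a3 lay at 18.8 to 96.2, below the 40th percentile throughout.

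For 7 genes with 2 tested probe sets, the log2 ratio of one probe set to the other within each array showed whether they changed unequally, over 21 tests. The ratio did not overlap between groups in any comparison for Ptp4a2 and Ptprf, in both comparisons with HRG for Ptprs, and in both comparisons with BSN for Ptpn18. The ratio of Ptp4a2 1367971_at to 1371508_at changed by -1.13 between PTN and BSN on the log2 scale, and that of Ptprf 1368035_a_at to 1368036_at by -1.09. For Ptprs the ratio of 1369094_a_at to 1387901_at changed by 1.19 between HRG and BSN and by 1.20 between HRG and PTN. For Ptpn18 the ratio of 1371256_at to 1373065_at changed by -1.04 between HRG and BSN. In each of these the exact permutation p was 0.1, the smallest possible with 3 against 3, and 0.21 after Benjamini-Hochberg adjustment, so the design could not pass the threshold. The probe sets of Ptpn14, Ptprd and Ptpn3 overlapped in every comparison of the ratio. Of the 3'/5' control ratios given above, that of actin was lower in PTN than in BSN (exact permutation p = 0.1) and that of GAPDH was not (exact permutation p = 0.9). In HRG the GAPDH ratio was lower than in BSN (exact permutation p = 0.1, and 0.2 for actin). The actin ratio was higher in HRG than in PTN (exact permutation p = 0.1, and 0.3 for GAPDH). Their part in these probe set differences was not tested.

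**Figure D3:**
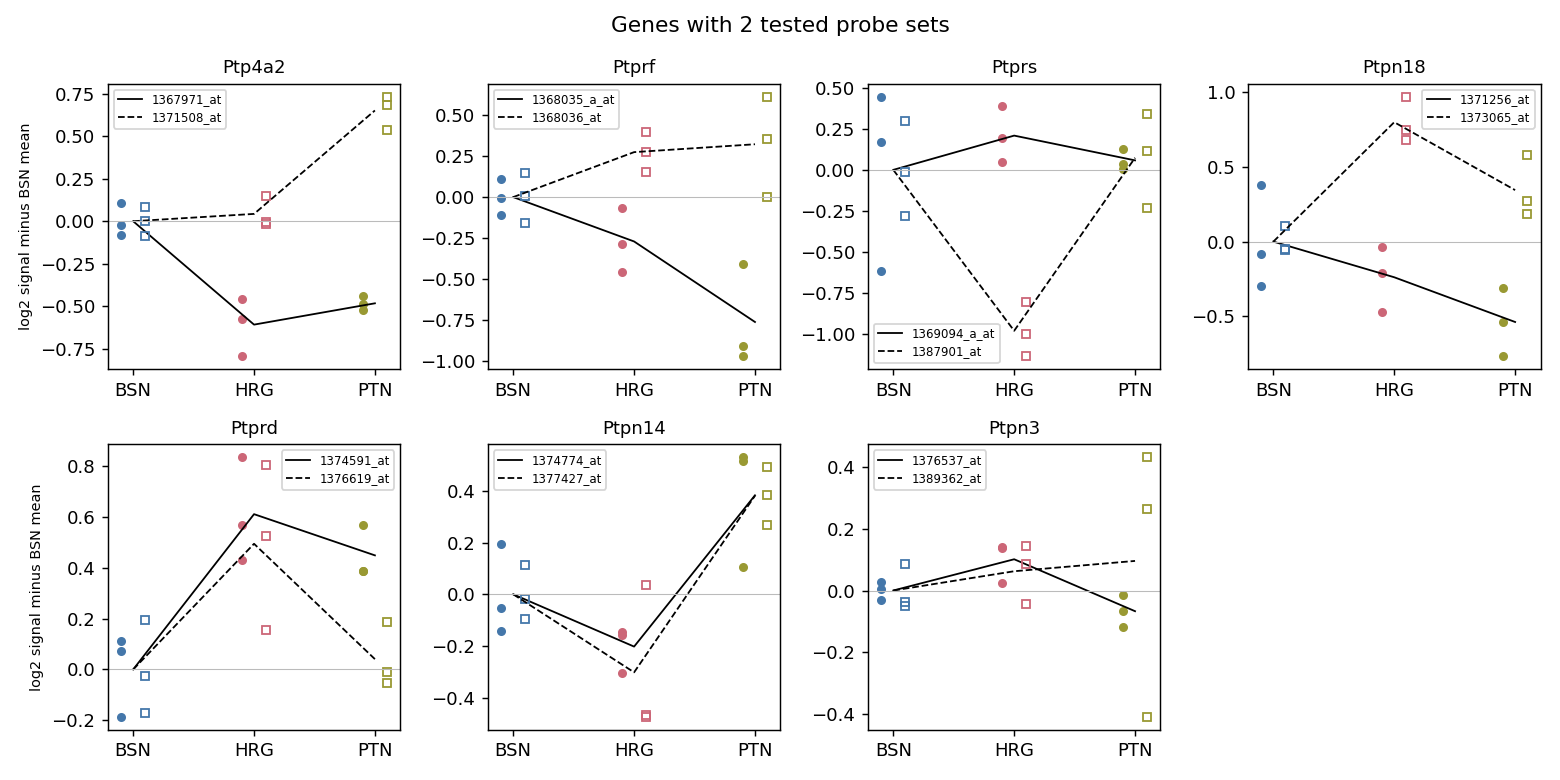
Log2 signal (with 16 added) minus the probe set's BSN mean (y axis) by medium (x axis) for the 7 genes with 2 tested probe sets. Filled circles and the solid line are the arrays and means of one probe set, open squares and the dashed line those of the other, and the lines of Ptp4a2 and Ptprf part in PTN while those of Ptpn14 run together.

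The 20 untested probe sets were below the 40th percentile on all 9 arrays, and 12 genes had no tested probe set. These were Ptpn5, Ptpn6, Ptpn7, Ptpn12, Ptp4a3, Ptprc, Ptprdl, Ptpre, Ptprk, Ptpro, Ptprq and Ptprv. Ptprc, encoding the leukocyte phosphatase CD45, lay at 45.9 to 239.1 on one probe set and 40.9 to 230.6 on the other. Ptpn6, the blood cell phosphatase Shp1, lay at 133.3 to 669.9. The array held 12 leukocyte markers. Their summed signal was 8078 to 9082 in BSN, 6349 to 7305 in HRG and 6352 to 8452 in PTN. Cd68, Cd14, Itgam, Tyrobp, Laptm5 and Cd53 had means below the 40th percentile in all groups, and the other 6 were tested. Csf1r, Lyz2, Aif1 and Fcer1g had means above it in all groups and passed in no comparison. Coro1a was at 879 ± 235 (BSN), 95.6 ± 30.5 (HRG) and 1036 ± 164 (PTN, SD, n = 3). Cd74 was at 952 ± 190, 604 ± 66.8 and 538 ± 146. Coro1a passed as lower in HRG than in either other medium, and Cd74 as lower in PTN than in BSN. Both entered the tests through arrays where they were high, so these calls are a description. When all probe sets were fitted without the filter, 3 calls were made among the 20 untested phosphatase probe sets. Ptpre, a close relative of Ptpra, was at 151.0, 176.4 and 82.3 in BSN, 323.8, 271.0 and 317.0 in HRG, and 363.8, 414.7 and 368.8 in PTN, and was higher in HRG (adjusted p = 0.0379) and in PTN (adjusted p = 0.0102) than in BSN. The Ptprs probe set 1370599_a_at was at 397.0, 412.0 and 493.5 in BSN, 194.3, 253.2 and 224.7 in HRG, and 279.2, 289.9 and 379.1 in PTN, and was lower in HRG than in BSN (adjusted p = 0.0445), the direction of 1387901_at and not of 1369094_a_at. No fold is given for signals this low.

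Of the 6 dual-specificity MAP kinase phosphatases on the array 4 were tested. In HRG against BSN, where Ptprr was higher, 3 were lower, beside 8.86% of all tested probe sets. Dusp1 did not pass there, with all its HRG arrays above all BSN arrays (log2 change 0.50, adjusted p = 0.143). In HRG against PTN, where Ptprr was also higher, 1 was higher, 1 lower and 2 did not pass. The shares of all probe sets there were 14.1% higher and 11.7% lower. In PTN against BSN 1 was lower, beside 13.4% of all, and 3 did not pass. The median log2 change of the 4 was -0.94, 0.00015 and -0.24 in these comparisons. Dusp3, from the rest of the superfamily and also able to act on MAP kinases, had HRG arrays above all BSN arrays and missed the threshold (log2 change 0.39, adjusted p = 0.0539). Dusp6, which acts on ERK and is induced by it, had signals of 25713.8, 26717.4 and 27143.4 in BSN, 12221.5, 13099.5 and 11187.3 in HRG, and 31075.7, 21645.5 and 23926.3 in PTN. It fell 2.18-fold in HRG against BSN (adjusted p = 0.000136) and 2.08-fold against PTN (adjusted p = 0.000135). Dusp2, a nuclear enzyme, had 5832.7, 5964.4 and 5696.6 in BSN, 1913.9, 2476.9 and 2036.0 in HRG, and 652.2, 510.0 and 507.1 in PTN, where its mean was below the 40th percentile. It fell 2.73-fold in HRG against BSN (adjusted p = 3.46e-05), and it was higher in HRG than in PTN (adjusted p = 2.42e-06). The order of the media was thus BSN, HRG, PTN from high to low for Dusp2, and HRG, PTN, BSN for Ptprr, with no overlap in either. Dusp5, an ERK phosphatase of the nucleus, fell 1.7-fold in HRG against BSN (adjusted p = 0.0135), and Dusp1 passed in none of the 3 comparisons (936 ± 36.5 (BSN), 1336 ± 144 (HRG) and 1069.7 ± 322 (PTN)).

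**Figure D4:**
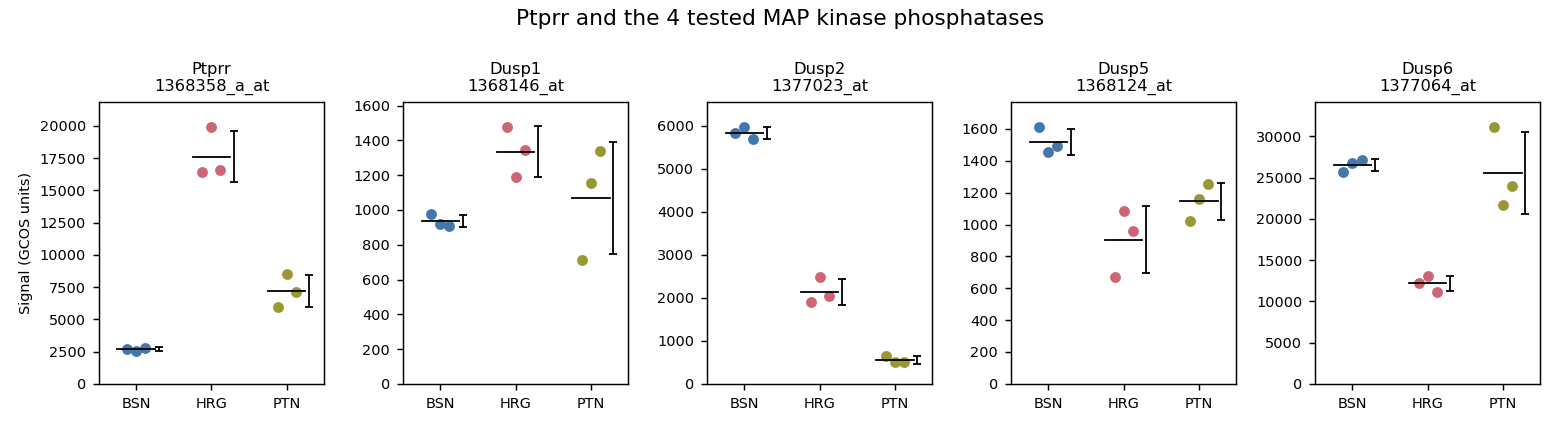
Signal in GCOS units (y axis, from 0, scaled per panel) on each of the 9 arrays by medium (x axis) for Ptprr and the 4 tested dual-specificity MAP kinase phosphatases. Points are arrays, lines are group means and bars are SD (n = 3). Ptprr is highest in HRG, while Dusp2, Dusp5 and Dusp6 are highest or level with the highest in BSN.

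Of the 12 tested phosphatases from the rest of the superfamily 3 fell and 9 did not pass in HRG against BSN, 1 was higher and 4 lower in HRG against PTN, and 1 fell and 11 did not pass in PTN against BSN. Their median log2 change was -0.11, 0.0043 and 0.03. Dusp22, a small dual-specificity phosphatase, was at 3163 ± 152 (BSN), 3569 ± 129 (HRG) and 1872 ± 168 (PTN), and was the member that fell in PTN (adjusted p = 0.00142). Of the 26 tested kinases and adaptors that the family acts on or with, 1 rose and 5 fell in HRG against BSN, 3 were higher and 2 lower in HRG against PTN, and 3 rose and 3 fell in PTN against BSN. Their median log2 change was -0.06, -0.01 and -0.14, beside -0.04, 0.08 and -0.11 for all. For both lists the shares over all tested probe sets were 6.92% higher and 8.86% lower in HRG against BSN. They were 14.1% and 11.7% in HRG against PTN, and 9.15% and 13.4% in PTN against BSN. Stat3, a substrate of Ptpn2, was at 5306 ± 734 (BSN), 3677 ± 628 (HRG) and 2250.4 ± 53.5 (PTN, SD, n = 3), with all 3 comparisons passing (limma adjusted p = 0.0341 for HRG against BSN). The summed signal of the 11 neuron markers on the array, a cell type rich in Ptprn and Ptprd, was 13358.5 to 14456 in BSN, 7827 to 9116 in HRG and 11054 to 13121 in PTN, and Snap25, Stmn2, Stmn3, Nefl and Nefm had means below the 40th percentile in all groups. Of the 7 tested, 4 were lower in HRG against BSN, 2 in HRG against PTN and 1 in PTN against BSN. None was higher, and Syp, Tubb3 and Stmn3 passed in no comparison. The shares lower over all tested probe sets were 8.86%, 11.7% and 13.4%. Dcx was at 988 ± 123 (BSN), 57.7 ± 22.6 (HRG) and 1123 ± 210 (PTN, SD, n = 3). Map2 was at 3050 ± 433, 611 ± 154 and 2651 ± 793. Both means were below the 40th percentile in HRG. Dcx entered the tests through the other media alone, so its calls as lower in HRG are a description. The summed signal of the 4 glia markers on the array was 2086 to 2818 in BSN, 2470 to 2802 in HRG and 1859 to 2361 in PTN. The part of the neuron and glia markers in the Ptprn, Ptprz1 and Ptprd values was not tested.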

How the data were processed

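Expression was measured on 9 one-colour rat arrays, 3 per medium, from RNA that had been amplified in 2 rounds, per the labels' protocols. The deposited values are signal intensities on a linear scale made with GCOS, per the submitters' processing notes, a program whose version is not given in the sources used here. In the design text the samples are called biological replicates. Symbols were those of the platform's annotation, and a RefSeq gene table changed 0 member symbols. The members and lists were chosen with earlier results of these data known. The rule for named genes gives every array's signal for members that passed in at least 1 comparison and for Ptprr and Ptprz1. Single genes of the other lists (Ptn, Mdk, Ppfibp1, Ppfibp2, Ppfia1, Stat3, the Dusp genes and Kdr, among others) fall outside this rule and were chosen for naming with their values in view.

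Of 15923 probe sets 57 were controls and left out, and 10106 passed the filter, a signal above the 40th percentile on at least 3 arrays. Signals were taken as log2 of the value plus 16, and folds are on that scale. All 9 arrays entered one linear fit with limma 3.58.1 under R 4.3.3, moderated by eBayes along an intensity trend, with 6 residual degrees of freedom and 12.7 after moderation, which limits precision. Adjusted p is limma's moderated test with the Benjamini-Hochberg method over all tested probe sets, and 0.05 was the threshold. No fold is given where a group mean was under its arrays' mean 40th percentile. For lists, each gene entered by its brightest probe set. The fit was also run on simulated data with independent normal errors and changes planted in HRG only. That setting is simpler than these arrays, so the run checks the code and not the calls.

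Arrays with one replicate number deviated together to a small degree in HRG and PTN (correlation of deviations from group means 0.118 to 0.332). In HRG and BSN this correlation was of either sign (-0.06 to 0.13), and in PTN and BSN it was negative (-0.10 to -0.01). The labels state no pairing and the main fit used none. Replicate number entered as a block in an alternative fit. Alternatives were quantile normalization, median centring, a pseudocount of 1 or 64, the filter dropped or set to the 60th percentile, moderation without the trend, fits of just 2 groups, a block for replicate number, and each array left out in turn. Plots used matplotlib 3.10.9 on Python 3.11.15.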

Additional observations from a re-analysis of the deposited data

How the results depend on the processing

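The counts of phosphatase probe sets that passed stayed within 1.5 times of 7 (HRG against BSN), 11 (HRG against PTN) and 8 (PTN against BSN) under each alternative run except some that left out an array. With each array left out in turn they were 5 to 9, 7 to 11 and 5 to 15, and over all probe sets 1023 to 2216, 1826 to 3094 and 1345 to 3197. The lowest counts of members came without HRG replicate 1, HRG replicate 2 and BSN replicate 1, and the highest in PTN against BSN without PTN replicate 1. With the replicate block the counts of members were 7, 11 and 7, and the Ptpn1 call in PTN against BSN (0.0508) was the only call among the named probe sets that the block changed. Of 26 calls of named probe sets 17 held under every alternative that gave a value and 9 were lost under at least 1. The 26 include the calls of Ptprb, which are a description. Of 22 values that did not pass 7 passed under at least 1. Values that changed sign under at least 1 alternative did not pass in any fit that changed it. Over the fits with an array left out, the log2 change in HRG against BSN was -0.31 to 0.024 for Ptpn1 and -0.010 to 0.084 for Ptp4a2 1371508_at, Ptprz1 was at -0.29 to 0.083 in HRG against PTN, and in PTN against BSN Ptprs 1387901_at was at -0.068 to 0.23 and Ptprb at -0.69 to 0.33. Ptprb was at 0.023 there after quantile normalization. Over all probe sets the split of calls after median centring was 802 higher and 778 lower (HRG against BSN), 1077 and 1418 (HRG against PTN), and 1342 and 884 (PTN against BSN), beside 699 and 895, 1423 and 1180, and 925 and 1351. The 60th percentile filter gave no value for Ptpn1, Ptpn23 and Ptprb. Signal near background limits the 20 probe sets under the 40th percentile, and the cause of the changes was not tested.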

Other observations

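PTN replicate 1 stood apart from the other PTN arrays for several phosphatases in a way the group mean hides. Ptprf 1368035_a_at was at 30138.7 on that array and at 20368.3 and 21207.4 on the others. Ptpra was at 2302.6 there, above all BSN arrays, and at 1586.4 and 1409.2 on the others, below all HRG arrays. Ptpn3 1389362_at was lowest of all 9 arrays there (12619.1) and highest in the other PTN arrays (22556.7 and 20104.7). Seeing the values led to the choice of these probe sets, and the cause of the spread was not tested.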
